A study of Mus musculus with 23 samples.

Results

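The genes for 9 assembly factors of respiratory complex I were followed in mouse embryonic stem cells (ESCs) that lose the zinc-finger protein Zbtb11. They are *Ndufaf1*, *Ecsit*, *Acad9*, *Tmem126b*, *Ndufaf3*, *Ndufaf4*, *Ndufaf2*, *Foxred1* and *Nubpl*. They were chosen by their symbols in the GENCODE vM1 annotation, which matched 9 of the 37310 gene records of the count tables, and ChIP-seq peaks were assigned to them where a peak touched the promoter, from 2 kb upstream to 500 bases downstream of the gene start. All 9 passed the filter on expression. The rule uses no measured value, although the 9 genes were chosen with earlier results of these data known.

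Complex I, the NADH:ubiquinone oxidoreductase of the mitochondrial inner membrane, passes electrons from NADH to ubiquinone and pumps protons. It is put together from subunits encoded in the nucleus and in the mitochondrial genome, as modules that are joined stepwise. Assembly factors hold these intermediates together, insert flavin or iron-sulphur cofactors or modify subunits, and are absent from the finished enzyme.

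RNA-seq was performed on E14 ESCs after 48 h of treatment, in 3 biological replicates of each of 3 groups. *Zbtb11* KO cells carried *Zbtb11* lox/lox and *R26* ERt2-Cre and received 250 nM 4-hydroxytamoxifen (4OHT), which activates the Cre recombinase and deletes a floxed exon. The EtOH control was the same engineered line with the ethanol carrier, and the 4OHT control was *Zbtb11* WT/WT cells without the transgene (*R26* WT) that received 250 nM 4OHT. The KO and the EtOH control therefore share the floxed alleles and the Cre transgene and differ in 4OHT, whereas the KO and the 4OHT control share 4OHT and differ in both loci. The transgene sits in the *Rosa26* locus, all inducible cells derive from 1 engineered line isolated as a colony, and both KO comparisons use the same 3 KO libraries. ChIP-seq was performed without treatment, with an antibody to Zbtb11 in 4 replicates of E14 WT cells and with an antibody to FLAG in 3 replicates of *Zbtb11* FLAG/FLAG cells and 2 replicates of untagged control cells.

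The RNA-seq libraries held 14301457 to 23876604 counts on genes. All 8 markers of pluripotency were expressed, with a summed level of 3504 to 4003 CPM (counts scaled to a common library size) in the 9 libraries. In the comparison of KO with EtOH control 0 of 8 passed the edgeR threshold, 0 had an unadjusted p under 0.05 and 0 were called by DESeq2. Against the 4OHT control 0 passed in either, and 2 had an unadjusted p under 0.05. With the replicate number as a block in edgeR, 4 were lower and 3 higher in KO than in the 4OHT control, and 0 were called against the EtOH control. In the 4OHT control against the EtOH control edgeR called 0 without the block and 3 lower and 3 higher with it, and DESeq2 called 1 lower. With the block, 2592 of the 14346 tested genes were lower and 2418 higher in KO against 4OHT control. In the 4OHT control against the EtOH control 2374 were lower and 2442 higher with it. The summed level of 5 primitive endoderm markers was 6.74 to 12.7 CPM, that of 3 mesoderm markers 2.91 to 5.02 CPM, that of 2 neural markers (*Pax6* and *Nes*) 37.3 to 50.8 CPM, and that of 6 fibroblast or feeder markers 15.99 to 26.4 CPM, with *Lum* at 0 in all libraries. Of the markers of other lineages that were tested, *Col1a2* was higher (log2 fold change 1.96, edgeR adjusted p = 2.6003e-03) and *Eomes* lower (-0.74, edgeR adjusted p = 2.8701e-02) in KO than in the 4OHT control, both named after their values were seen. In KO against EtOH control *Col1a2* and *Eomes* were at -0.045 and -0.23, and neither passed the threshold. In the 4OHT control against the EtOH control *Col1a2* was at -2.002 (edgeR adjusted p = 5.0553e-03) and *Eomes* at 0.51 (edgeR adjusted p = 0.124). The summed mesoderm level was 2.91 to 3.59 CPM in the KO and 4.67 to 5.02 CPM in the 4OHT control. In the EtOH control it was 3.465 to 3.93 CPM, which overlapped the KO. The summed level of the fibroblast markers overlapped between KO and 4OHT control (18.2 to 26.4 and 15.99 to 23.1 CPM). Their part in the results was not tested. The deletion itself could not be followed in the counts, since *Zbtb11* had no record of its own and its exons were counted within *Rpl24* (6811, 8728 and 8339 joint counts in the EtOH control, 6236, 7380 and 7313 in the KO).

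The promoters of 4 of the 9 genes overlapped a consensus Zbtb11 peak, a region found with both antibodies. Their sequences are shown because the peaks overlap them and because 1 of the 4 mRNAs was lower in the KO. Each run covers 250 bases before and 50 bases after the gene start, read 5′ to 3′ on the strand of the gene from mm9, and capitals mark CCGGAAG, the core of the motif bound by NRF-2/GABP, a regulator of nuclear genes for mitochondrial proteins. The windows are chr2:119488514-119488813 for *Ndufaf1*, chr9:21889770-21890069 for *Ecsit*, chr9:108469624-108469923 for *Ndufaf3* and chr9:35018591-35018890 for *Foxred1*, all on the minus strand. The peak at *Ndufaf3*, centred at -685 from the gene start, lies mostly upstream of its window, so the bases at its centre are not shown.
Ndufaf1: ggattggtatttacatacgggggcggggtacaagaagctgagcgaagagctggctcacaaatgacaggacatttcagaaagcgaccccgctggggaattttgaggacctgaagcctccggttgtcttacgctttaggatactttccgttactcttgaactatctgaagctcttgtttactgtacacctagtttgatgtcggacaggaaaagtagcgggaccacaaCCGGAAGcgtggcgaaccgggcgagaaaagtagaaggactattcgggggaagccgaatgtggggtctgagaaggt
Ecsit: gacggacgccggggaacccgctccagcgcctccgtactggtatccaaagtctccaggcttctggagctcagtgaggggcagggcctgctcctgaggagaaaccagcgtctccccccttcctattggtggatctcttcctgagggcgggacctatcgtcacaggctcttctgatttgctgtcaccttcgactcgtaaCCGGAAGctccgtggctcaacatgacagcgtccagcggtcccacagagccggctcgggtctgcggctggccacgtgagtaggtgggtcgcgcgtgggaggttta
Ndufaf3: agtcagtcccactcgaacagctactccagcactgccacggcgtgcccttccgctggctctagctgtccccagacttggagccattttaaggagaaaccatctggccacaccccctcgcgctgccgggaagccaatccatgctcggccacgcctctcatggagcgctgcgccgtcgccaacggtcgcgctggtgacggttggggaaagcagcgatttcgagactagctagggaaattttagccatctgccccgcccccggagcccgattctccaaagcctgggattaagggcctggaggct
Foxred1: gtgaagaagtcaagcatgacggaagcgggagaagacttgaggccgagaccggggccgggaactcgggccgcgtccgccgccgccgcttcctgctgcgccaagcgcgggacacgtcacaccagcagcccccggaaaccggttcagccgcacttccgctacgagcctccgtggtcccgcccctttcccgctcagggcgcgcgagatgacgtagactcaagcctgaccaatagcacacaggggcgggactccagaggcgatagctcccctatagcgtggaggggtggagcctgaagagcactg

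CCGGAAG was present, on either strand, in 3 of the 9 windows, those of *Ndufaf1*, *Ecsit* and *Acad9*, compared with 15.7% of the 14336 promoters of tested genes read in the same way. Counted from the gene start, with -1 as the base before it, the match lay at -25 to -19 in *Ndufaf1*, at -54 to -48 in *Ecsit* and, on the opposite strand, at 17 to 23 in *Acad9*. In all 3 genes the same 10 bases were present, AACCGGAAGC, a word that contains CCGGAAG, was chosen after the sequences were seen and was held by 49 of the 14336 promoters (0.342%). It is set in capitals in the sites, each with 10 bases on either side and turned to the direction of the motif.
Ndufaf1: gcgggaccacAACCGGAAGCgtggcgaacc
Ecsit: ttcgactcgtAACCGGAAGCtccgtggctc
Acad9: gcaccgctgcAACCGGAAGCtagctcgcac

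The other motif searched on both strands, that of NRF-1, consists of GCGC and TGCGC with any base between them. It was present in 1 window, that of *Ndufaf4*, at -113 to -104, compared with 9.01% of promoters. Its site with 10 bases on either side was as follows, with the match in capitals.
Ndufaf4: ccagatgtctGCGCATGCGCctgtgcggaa
No exact match to either motif was present in the windows of *Tmem126b*, *Ndufaf3*, *Ndufaf2*, *Foxred1* and *Nubpl*. Sites that differ from the searched bases were not counted, so similar sites may be present there. Within 500 bases on each side of the start CCGGAAG was also present once at *Ndufaf2*, and 26.5% of promoters held it there. GC content ranged from 44.3% in *Nubpl* and 44.7% in *Acad9* to 66.7% in *Foxred1*, with a median of 59.7% over all promoters. The ratio of observed to expected CpG was 0.68 to 0.93, with a median of 0.725 over all promoters.

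The mitochondrial complex I intermediate assembly (MCIA) complex, which builds the membrane arm, has *Ndufaf1*, *Ecsit*, *Acad9* and *Tmem126b* among its core members. *Ndufaf1* mRNA was lower in *Zbtb11* KO cells than in either control, and the mRNAs of its MCIA partners overlapped those of the controls. *Ndufaf1* (chromosome 2, 119481182 to 119488563, minus strand of mm9) had 300, 434 and 386 counts in the EtOH control, 60, 97 and 96 in the KO and 229, 420 and 382 in the 4OHT control. Scaled by library with TMM, these were 15.6, 18.6 and 17.9 CPM, 3.49, 4.70 and 4.77 CPM, and 15.7, 19.0 and 17.0 CPM. The 3 KO libraries lay below all 6 control libraries, and the controls overlapped. Group means were 17.4 ± 1.53 CPM in the EtOH control, 4.32 ± 0.718 CPM in the KO and 17.2 ± 1.64 CPM in the 4OHT control (SD, n = 3).

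*Ndufaf1* fell to 25.0% of the EtOH control, a log2 fold change of -2.0 (SE 0.15, 95% interval -2.34 to -1.66, edgeR adjusted p = 1.7731e-04). Against the 4OHT control, which shares the KO libraries, it fell to 25.2% (log2 fold change -1.99, 95% interval -2.33 to -1.65, edgeR adjusted p = 8.0203e-05). In both comparisons 1 of the 9 assembly factors passed the threshold of 0.05, beside 0.899% of the 14346 genes tested against the EtOH control (0.843% lower) and 6.45% against the 4OHT control (3.72% lower). Among the 121 genes that were lower in the KO than in the EtOH control, whose median log2 fold change was -1.38, *Ndufaf1* was number 23 by the size of its fall. In bulk RNA, fewer cells of a type and less RNA per cell cannot be told apart.

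The fall was present within each replicate number. The log2 ratio of KO to EtOH control was -2.16 in replicate 1, -1.98 in replicate 2 and -1.90 in replicate 3, and that of KO to 4OHT control was -2.17, -2.01 and -1.83. The call depended on which replicates entered the fit. Without replicate 2 of all groups the log2 fold change against the EtOH control was -2.02 with an edgeR adjusted p of 0.0655, and without replicate 3 it was -2.06 with 0.0568, and in those fits 13 and 21 genes were called in all. Without replicate 1 it was -1.94 with an adjusted p of 2.6930e-06.

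*Ecsit*, which encodes an MCIA scaffold that is also known from Toll-like receptor signalling, was expressed at 33.9, 42.7 and 40.3 CPM in the EtOH control, 33.2, 39.2 and 41.4 CPM in the KO and 36.2, 39.4 and 41.5 CPM in the 4OHT control. The groups overlapped, and replicate 1 was the lowest library of each group. *Acad9*, a flavoprotein of the acyl-CoA dehydrogenase family, had 49.2, 58.6 and 56.2 CPM in the EtOH control, 49.1, 56.8 and 62.5 CPM in the KO and 49.8, 55.0 and 67.1 CPM in the 4OHT control, again with replicate 1 lowest in each group. *Tmem126b*, which encodes a membrane protein of the MCIA complex, had 9.54, 10.9 and 10.3 CPM, 10.5, 9.45 and 10.6 CPM, and 8.92, 11.6 and 10.97 CPM in the same order of groups. Their log2 fold changes in KO against EtOH control were -0.04 for *Ecsit*, 0.04 for *Acad9* and -0.01 for *Tmem126b*, each with an edgeR adjusted p of 1. The 95% intervals were -0.30 to 0.23, -0.26 to 0.34 and -0.31 to 0.29, so that none reached the value of *Ndufaf1*.

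**Figure D1:**
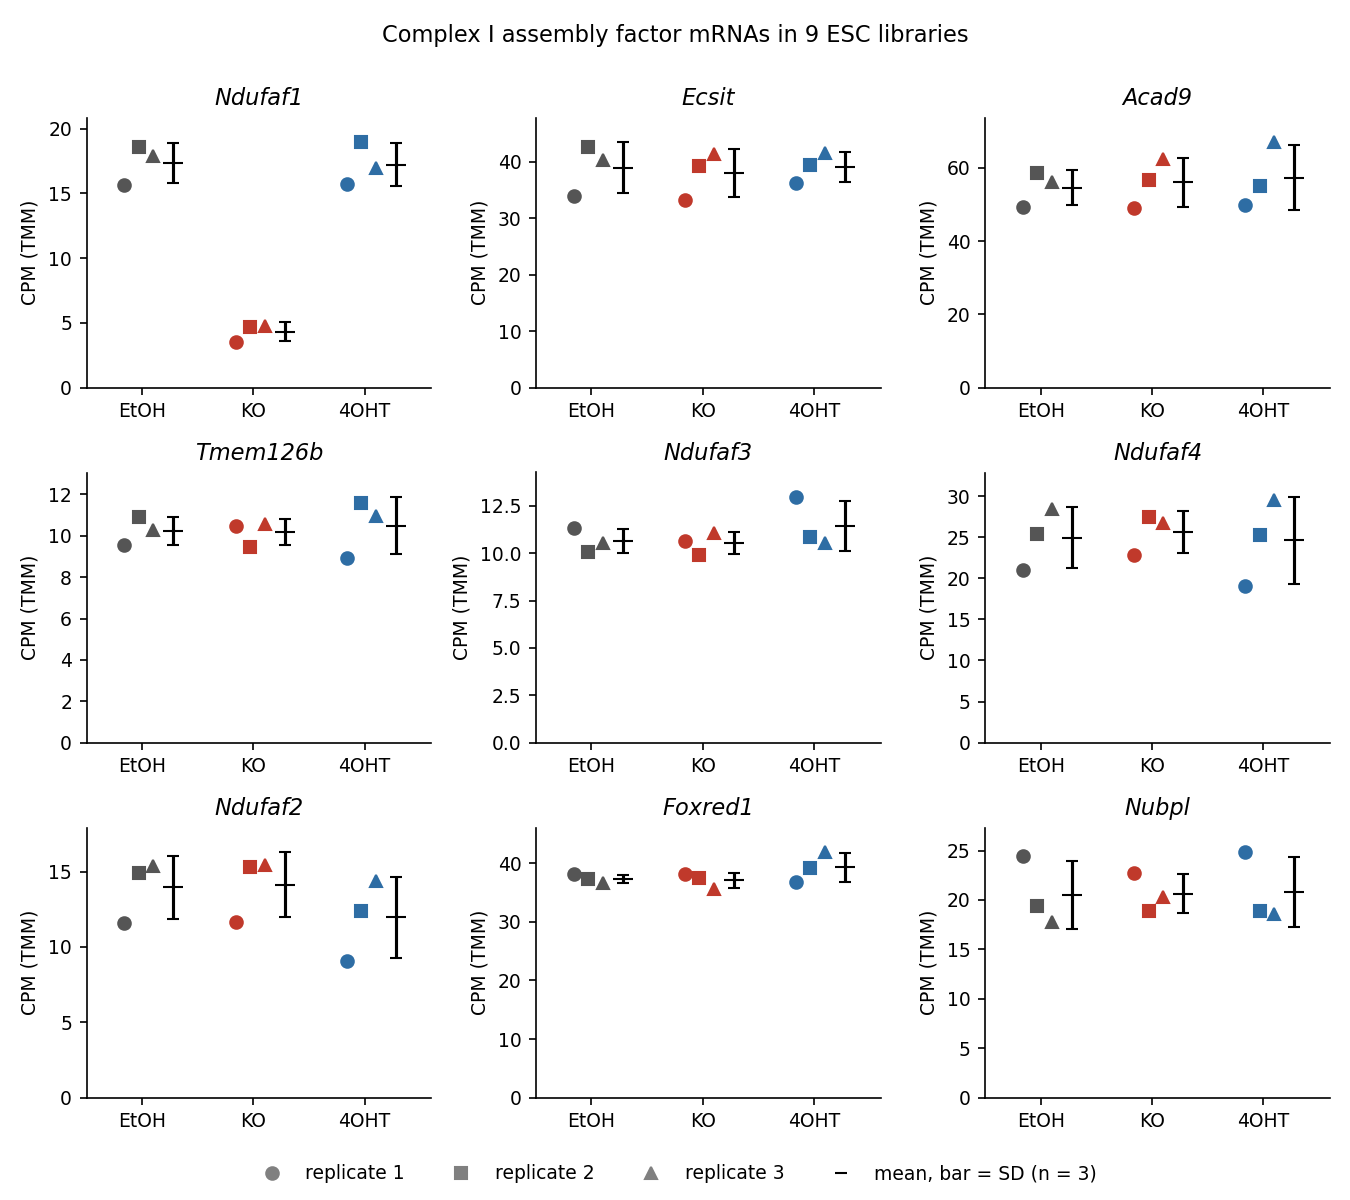
Level of each assembly factor mRNA in the 9 RNA-seq libraries, in TMM-scaled CPM from 0, with 1 symbol shape per replicate number and the mean and SD (n = 3) in black. The *Ndufaf1* panel shows the KO libraries at 3.49 to 4.77 CPM and all control libraries at 15.6 to 19.0 CPM, whereas the groups overlap in the other 8 panels.

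The Q module, which carries the ubiquinone site, is joined to the membrane arm with the help of *Ndufaf3* and *Ndufaf4*, whose products bind each other. *Ndufaf3* was measured at 11.3, 10.1 and 10.5 CPM in the EtOH control, 10.7, 9.89 and 11.1 CPM in the KO and 12.97, 10.9 and 10.5 CPM in the 4OHT control. *Ndufaf4* was measured at 21.0, 25.4 and 28.5 CPM, 22.8, 27.5 and 26.7 CPM, and 19.0, 25.3 and 29.5 CPM. For both genes the 3 groups overlapped. In KO against EtOH control the log2 fold change was -0.01 for *Ndufaf3* (95% interval -0.29 to 0.26) and 0.04 for *Ndufaf4* (95% interval -0.35 to 0.43), each with an edgeR adjusted p of 1.

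The peripheral arm and the last steps of assembly involve *Ndufaf2*, a paralogue of the subunit *Ndufa12* that holds its place until the end of assembly, *Nubpl*, which delivers iron-sulphur clusters, and *Foxred1*, an FAD-dependent oxidoreductase. *Ndufaf2* was expressed at 11.6, 14.9 and 15.4 CPM in the EtOH control, 11.6, 15.3 and 15.4 CPM in the KO and 9.06, 12.4 and 14.4 CPM in the 4OHT control. Within each replicate number the KO was near the EtOH control (log2 ratios 0.01, 0.04 and 0.00) and above the 4OHT control (0.36, 0.30 and 0.10), although the groups overlapped. The log2 fold change against the 4OHT control was 0.24 (95% interval -0.21 to 0.68, edgeR adjusted p = 0.598). With the replicate number as a block the same difference passed the threshold (log2 fold change 0.24, edgeR adjusted p = 0.0498), which brought the number of assembly factors called in that comparison from 1 to 2. Calls were common in that fit, with 2592 lower and 2418 higher of the 14346 genes tested.

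*Foxred1* had 38.1, 37.2 and 36.7 CPM in the EtOH control, 38.1, 37.5 and 35.7 CPM in the KO and 36.9, 39.1 and 41.9 CPM in the 4OHT control. It varied least of the 9 between EtOH control replicates, with an SD of 1.93% of the mean. *Nubpl* had 24.4, 19.4 and 17.8 CPM, 22.8, 18.9 and 20.3 CPM, and 24.8, 18.9 and 18.6 CPM, with an SD of 16.9% of the mean in the EtOH control and replicate 1 highest in every group. In KO against EtOH control the log2 fold changes were -0.01 for *Foxred1* (95% interval -0.19 to 0.17), 0.01 for *Nubpl* (95% interval -0.35 to 0.37) and 0.02 for *Ndufaf2* (95% interval -0.42 to 0.46), each with an edgeR adjusted p of 1.

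Replicate 1 stood apart from the other replicates for several assembly factors. Relative to the mean log2 CPM of replicates 2 and 3, replicate 1 was lower in all 3 groups for 5 genes, *Ndufaf1* (differences of -0.22, -0.44 and -0.19 in the EtOH control, KO and 4OHT control), *Ecsit*, *Acad9*, *Ndufaf4* and *Ndufaf2*. It was higher in all 3 groups for *Ndufaf3* and *Nubpl*, and it went in both directions for *Tmem126b* and *Foxred1*. For *Nubpl* the differences were 0.40, 0.22 and 0.41.

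In the 4OHT control against the EtOH control, 0 of the 9 assembly factors passed the threshold in edgeR, beside 4.06% of the 14346 genes tested, and 0 did so at an unadjusted p under 0.05 or in DESeq2. The log2 fold changes ranged from -0.22 for *Ndufaf2* (95% interval -0.66 to 0.22, edgeR adjusted p = 0.648) to 0.10 for *Ndufaf3* (95% interval -0.17 to 0.38, edgeR adjusted p = 0.739), and that of *Ndufaf1* was -0.01 (95% interval -0.33 to 0.31, edgeR adjusted p = 0.984). Against the same 4OHT control libraries, the 8 assembly factors other than *Ndufaf1* changed in the KO by -0.12 to 0.24. In all 3 comparisons the groups overlapped for these 8 genes, whereas groups did not overlap for 7.21% of tested genes in KO against EtOH control, 22.9% in KO against 4OHT control and 21.7% in 4OHT control against EtOH control.

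**Figure D2:**
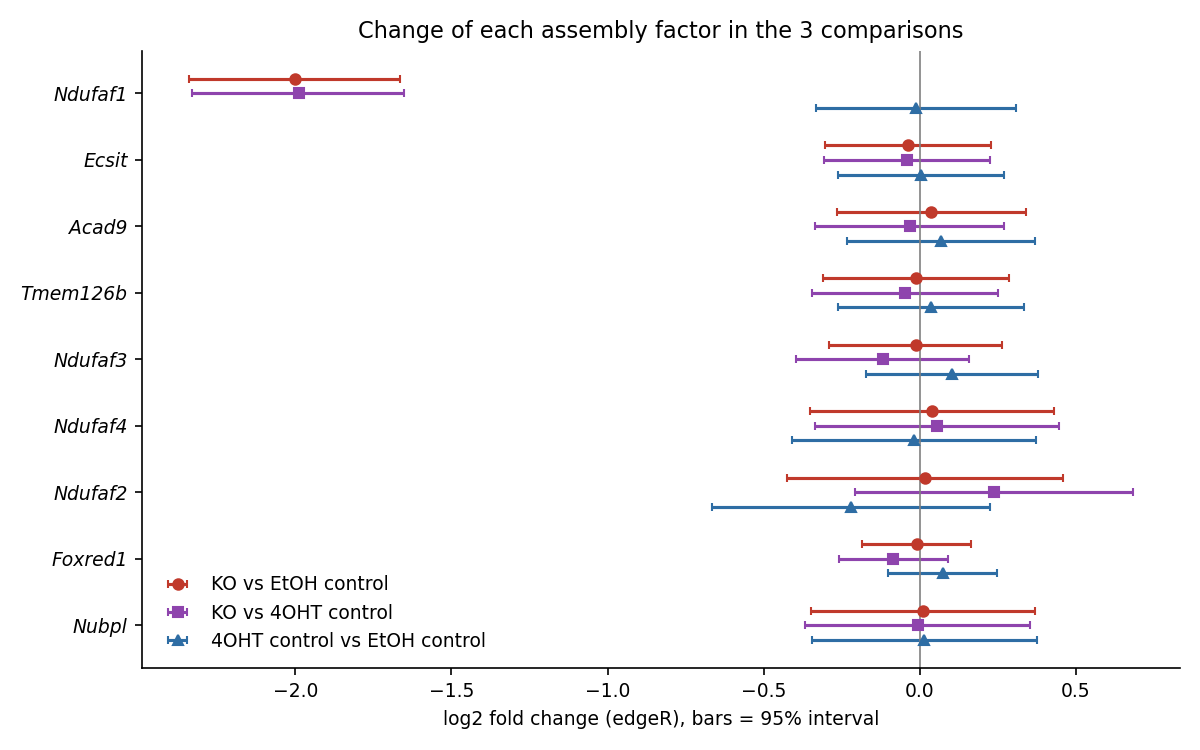
Log2 fold change of each assembly factor in the 3 comparisons, with 95% intervals from edgeR (n = 3 libraries per group). Both KO values of *Ndufaf1* lie at -2.0 and -1.99, and every other interval includes 0.

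The ratio of *Ndufaf1* to another assembly factor within a library does not depend on how libraries are scaled. The log2 ratio of *Ndufaf1* to *Ecsit* was -1.16 ± 0.042 in the EtOH control, -3.14 ± 0.0977 in the KO and -1.18 ± 0.119 in the 4OHT control (SD, n = 3), and that to *Acad9* was -1.66 ± 0.00192, -3.71 ± 0.11 and -1.73 ± 0.23. Over the 8 partners the log2 ratio in the KO minus that in the EtOH control was -2.06 to -1.98, and that relative to the 4OHT control was -2.26 to -1.89. In all 16 comparisons each KO library lay below each control library. The 16 reuse the same *Ndufaf1* counts of the same 3 KO libraries, so these comparisons are not independent of each other or of the fall given above. The two-sided exact permutation test gave p = 0.1 for each, which is the smallest that 3 against 3 libraries allow and cannot pass 0.05, and 0.1 after Benjamini-Hochberg adjustment over the 16 ratios.

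Levels of different genes were compared per kilobase of exon. In the EtOH control *Ecsit* and *Ndufaf2* were highest, at 24.5 ± 2.84 and 20.6 ± 3.08 RPKM (counts scaled to library size and exon length, SD, n = 3), and their libraries overlapped. *Ndufaf1* followed at 11.6 ± 1.02, overlapping *Ndufaf3* at 9.98 ± 0.595, ahead of *Foxred1* at 9.19 ± 0.177. *Acad9* at 6.57 ± 0.584 and *Ndufaf4* at 6.39 ± 0.958 overlapped, and *Nubpl* at 4.14 ± 0.698 and *Tmem126b* at 2.57 ± 0.172 were lowest. In the KO *Ndufaf1* was at 2.88 ± 0.478 RPKM, number 8 of 9, next to *Tmem126b* at 2.55 ± 0.156. The length used bears on this order, since the union of exons includes transcripts that may not be used in ESCs. With the length of the longest protein-coding transcript *Foxred1* was at 16.3 ± 0.314 RPKM in the EtOH control and moved from number 5 to number 3, while *Tmem126b* was at 6.81 ± 0.456 and overlapped *Ndufaf4* at 6.87 ± 1.03. *Ndufaf1* was then lowest of the 9 in the KO, at 2.92 ± 0.486 RPKM.

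Some counts could be shared with other genes. Copies of 100 bases or more that matched elsewhere in the genome at 95% identity or more numbered 14 for *Acad9*, the longest of 716 bases, and 1 for *Nubpl*, of 1153 bases, so the counts of these genes are less certain. *Ndufaf1* and the other 6 genes had 0. The long noncoding gene *Gm16845* overlaps *Ecsit* on the opposite strand, with 121 exonic bases in common, and had 4 to 33 counts per library. *Foxred1* lies within the span of the gene *Srpr* on the opposite strand, over 6850 bases with 0 exonic bases in common. *Srpr* had 2028 to 3379 counts per library, and whether its reads entered the counts of *Foxred1* was not tested.

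Zbtb11 occupancy differed between the assembly factors. Consensus peaks were present at the promoters of *Ndufaf1*, *Ecsit*, *Ndufaf3* and *Foxred1*, 4 of the 9, and at 28.1% of the 14346 tested genes. The same 4 had one with promoters of 5 kb on each side (32.3% of tested genes) with the starts of all transcripts (31.1%), and where at least 50% of the peak had to lie inside the promoter (25.5%). All 4 were also in the lists of the Zbtb11 antibody and of FLAG-Zbtb11, and 0 of the 9 promoters overlapped a peak of the FLAG control, as did 0.216% of tested genes. The FLAG-Zbtb11 list alone had a further peak at *Tmem126b*, chr7:97624228-97624607, which made 5 of 9 in that list beside 33.5% of tested genes. The nearest consensus peak was 18084 bases from the start of *Tmem126b* and 83664 to 104812 bases from the starts of *Nubpl*, *Acad9*, *Ndufaf2* and *Ndufaf4*.

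The peak at *Ndufaf1* (chr2:119488008-119489208, centred at -45 from the start) was the strongest of the 4. Its normalised coverage was 579, 728, 524 and 956 in the 4 Zbtb11 libraries and 641, 678 and 420 in the 3 FLAG-Zbtb11 libraries. The mean of 697 ± 193 (SD, n = 4) was 9.77 times the median of the 7500 consensus peaks, 71.3, and ranked 199, and in single libraries the rank was 161 to 271. It was above 308.9, the limit of high peaks set at 1.5 interquartile ranges over the upper quartile, which 857 of the 7500 peaks (11.4%) exceeded. High peaks were present at the promoters of 5.69% of tested genes.

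The peak at *Foxred1* (chr9:35018249-35019449) had 118, 119, 180 and 186 in the Zbtb11 libraries and 117, 97.96 and 122 in the FLAG-Zbtb11 libraries, a mean of 151 ± 37.7 with rank 1822. That at *Ndufaf3* (chr9:108469758-108470958, centred at -685) had 42.2, 93.0, 126 and 114, and 72.8, 86.3 and 96.9, a mean of 93.7 ± 36.9 with rank 2923. That at *Ecsit* (chr9:21889167-21890367) had 88.9, 70.5, 66.6 and 47.9, and 50.7, 39.5 and 76.4, a mean of 68.5 ± 16.8 with rank 3885. Every library of the *Ndufaf1* peak lay above every library of the other 3. The libraries of *Ndufaf3* overlapped those of *Foxred1* and of *Ecsit*, whereas every *Foxred1* library lay above every *Ecsit* library. Each value is a whole multiple of a step particular to the library, and in these steps the *Ndufaf1* peak held 405 to 1006 reads, *Foxred1* 67 to 298, *Ndufaf3* 38 to 232 and *Ecsit* 27 to 183, so the weaker peaks rest on fewer reads.

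**Figure D3:**
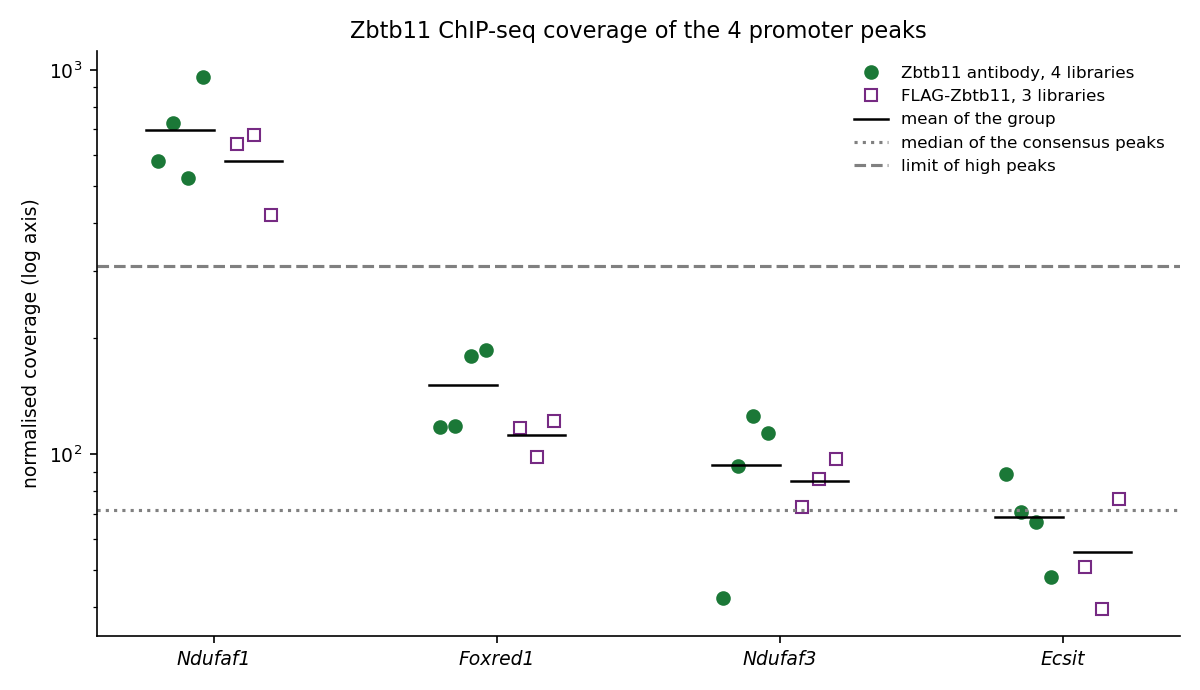
Normalised ChIP-seq coverage (log axis) of the consensus peaks at 4 assembly factor promoters, 1 symbol per library, with the mean of each antibody, the median of all 7500 peaks (71.3, dotted) and the limit of high peaks (308.9, dashed). All 7 *Ndufaf1* values, 420 to 956, lie above the limit, and those of *Foxred1*, *Ndufaf3* and *Ecsit*, 39.5 to 186, lie below it.

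The assembly factor with a high promoter peak was the one whose mRNA fell, whereas the 3 with weaker peaks and the 5 without a consensus peak did not pass the threshold. Over all tested genes, 12.4% of the 817 with a high promoter peak were lower in the KO than in the EtOH control, compared with 0.187% of the 3209 with a weaker peak and 0.136% of the 10320 with none. For the 1262 genes whose peak had a coverage between that of *Ecsit* and that of *Foxred1* it was 0.238%. *Ecsit* and *Acad9*, which hold the same 10-base word as *Ndufaf1* near the start, differed from it in coverage, with 0.96 times the median peak at *Ecsit* and no consensus peak at *Acad9*.

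**Figure D4:**
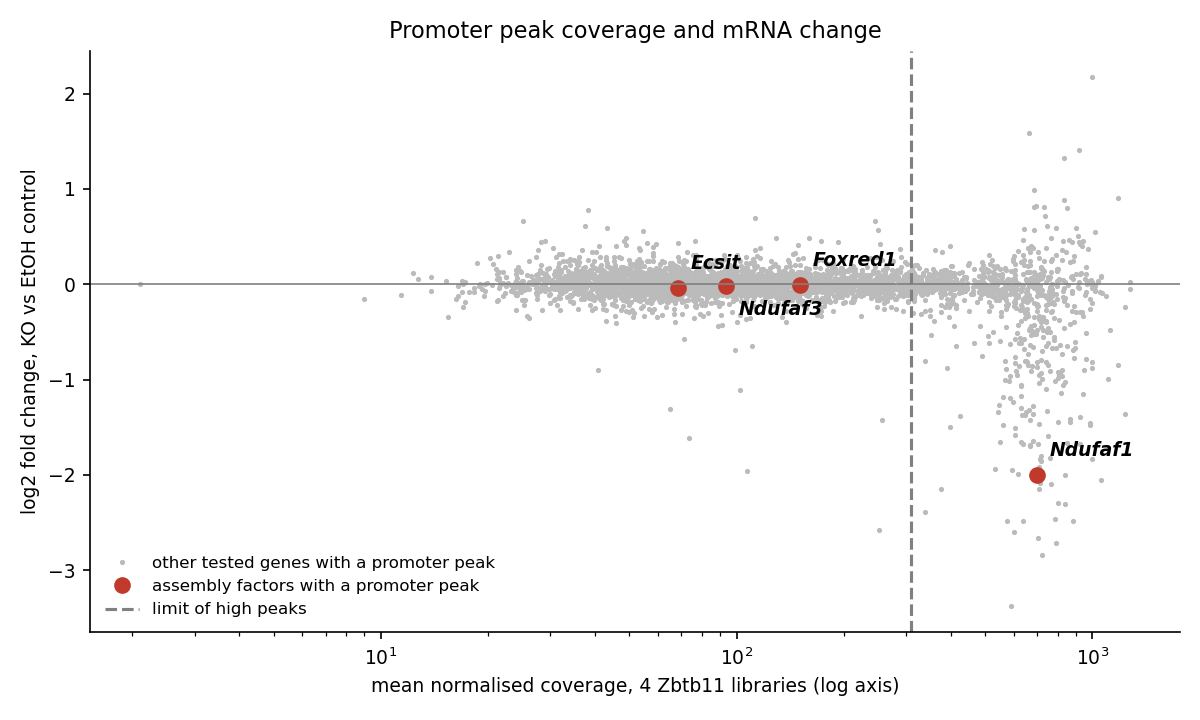
Log2 fold change of KO against EtOH control plotted against the mean coverage of the promoter peak (log axis) for the 4026 tested genes with a consensus peak, assembly factors in red. *Ndufaf1* lies at a coverage of 697 and -2.0, and *Foxred1*, *Ndufaf3* and *Ecsit* lie left of the high limit with changes of -0.04 to -0.01.

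Neighbouring genes share 2 of the promoters. *Srpr*, for a signal recognition particle receptor subunit, has a transcript that starts 100 bases from the start of *Foxred1* on the opposite strand, so that the peak there lies at both. Its log2 fold change in KO against EtOH control was -0.15 (edgeR adjusted p = 1). *Ercc8*, for a DNA repair protein, starts 106 bases from *Ndufaf2* on the opposite strand and had a log2 fold change of -0.06 (edgeR adjusted p = 1). The annotation places 2 microRNA records, *Mir425* and CT010508.1, within 2 kb of *Ndufaf3*, with 0 to 2 counts each.

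Other genes of complex I were examined as lists. Of 14 further assembly factors 13 were matched and tested. In KO against EtOH control 0 passed the threshold in edgeR, beside 0.899% of all tested genes. At an unadjusted p under 0.05 the count was 1 of 13. In DESeq2 and with the replicate block 1 was lower, and the block called 257 lower and 66 higher of the 14346 genes tested. The log2 fold changes of the 13 were -0.43 to 0.18 (median -0.02), beside a median of -0.01 for the 9 and -0.00065 for all genes tested. *Tmem70*, an assembly factor of ATP synthase that also acts on complex I and is singled out after its value was seen, had the lowest of these values (-0.43, edgeR adjusted p = 0.118) and was lower in KO than in the 4OHT control (-0.78, edgeR adjusted p = 1.4837e-03). In the 4OHT control against the EtOH control *Tmem70* was at 0.35 (edgeR adjusted p = 0.0768). Of the 36 nuclear subunits 3 were lower and 0 higher in KO against EtOH control, beside 0.843% lower and 0.0558% higher of all tested genes. The median of the 36 was -0.0022. The 3 were *Ndufc2*, a subunit of the membrane arm (log2 fold change -2.49, edgeR adjusted p = 2.5614e-04), *Ndufs7*, an iron-sulphur subunit of the Q module (-1.05, 1.7731e-04), and *Ndufa12* (-1.01, 5.4868e-04), the paralogue of *Ndufaf2*. The other 33 ranged from -0.30 to 0.18. In KO against 4OHT control the same 3 were lower, and 2 were higher, *Ndufa9* (0.53, edgeR adjusted p = 2.3674e-03) and *Ndufb10* (0.70, edgeR adjusted p = 2.4370e-02), both named after their values were seen. Of all tested genes 3.72% were lower and 2.73% higher in that comparison. In KO against EtOH control *Ndufa9* and *Ndufb10* were at 0.03 and 0.10. In the 4OHT control against the EtOH control *Ndufa9* was at -0.50 (edgeR adjusted p = 6.7918e-03) and *Ndufb10* at -0.60 (edgeR adjusted p = 0.0576). Of the 7 subunits encoded in the mitochondrial genome 5 passed the filter and 0 were called in KO against EtOH control, with log2 fold changes of -0.12 to -0.0019, also at an unadjusted p under 0.05 and in DESeq2.

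The genes whose level followed that of *Ndufaf1* most closely over the 9 libraries, by Pearson's r of log2 CPM, were *Taf1b*, a subunit of the RNA polymerase I factor SL1 (0.997), *Mnat1*, a subunit of the CDK-activating kinase (0.996), and *Ino80b*, a subunit of the INO80 chromatin remodeller (0.995). The libraries share treatment and replicate structure, so the values are a description. All 3 were lower in KO than in EtOH control, with log2 fold changes of -2.39, -1.66 and -2.08. Between *Ndufaf1* and the other 8 assembly factors r was -0.15 to 0.31.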

How the data were processed

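RNA-seq counts were used as deposited. They are the authors' raw HTSeq counts per gene, made from directional libraries of rRNA-depleted RNA after trimming (TrimGalore, PRINSEQ) and STAR alignment. The strand setting of the counting is not given in the sources used here. Between 25.3 and 31.6% of reads had no gene and stayed out of library sizes. The coverage values (signal) were also deposited by the authors, who aligned reads to mm9 with Bowtie 1.1.2 and used DiffBind to count and normalise them over the consensus peaks. The peak lists, made with MACS2 and IDR, give 1 set of positions per ChIP with replicates combined. Input libraries were not analysed here.

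The 14346 genes above 1 CPM in 3 or more libraries were tested with edgeR 4.0.16 in R 4.3.3 (TMM, 3 groups in 1 fit, two-sided legacy quasi-likelihood F test, Benjamini-Hochberg adjustment over all tested genes, threshold 0.05). The study left out 1 replicate that neither its methods nor the labels number, so all 3 were kept. Peaks, promoters and sequences were handled with Python 3.11.15, samtools 1.23.1 and blastn 2.17.0. Libraries with the same replicate number deviated together from their group means (correlations across genes 0.43 to 0.82 over 9 pairs, -0.75 to 0.53 over 18 pairs of different numbers). These ranges overlap. Libraries of replicate 1 went together across groups (0.79 to 0.82), whereas replicates 2 and 3 were not clearly separated by number. For example, EtOH control replicate 2 correlated at 0.53 with 4OHT control replicate 3 and at 0.43 with 4OHT control replicate 2. The main fit did not use the number. The test was checked on simulated data, where with 3 libraries per group 102 of 102 genes with a log2 change of 2 and 75 of 97 with a log2 change of 1 were called among 14184. The 9 genes and all lists were chosen with earlier results of these data known. Named were all 9, genes of the other lists past the threshold in KO against EtOH control, genes that overlap them or start within 2 kb, and the 3 genes most like *Ndufaf1*.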

Additional observations from a re-analysis of the deposited data

How the results depend on the processing

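The fall of *Ndufaf1* kept its direction under all 17 alternatives in each KO comparison, with log2 fold changes of -2.08 to -1.88 and adjusted p of 1.2692e-28 to 0.0655 against the EtOH control and -2.08 to -1.87 against the 4OHT control. It lost the threshold against the EtOH control without replicate 2 or without replicate 3, so that the number of assembly factors called there was 0 to 1 when a replicate was left out, and 1 under every other alternative. The cause was not tested. The number called in the 4OHT control against the EtOH control was 0 throughout. With the replicate number as a block, 2 assembly factors were called in KO against 4OHT control, which is 1 more than without pairing (adjusted p of *Ndufaf2* 0.0498 to 0.986 over all alternatives), and the block changed no other call of the 9. In that block fit 2592 genes were lower and 2418 higher of the 14346 tested.

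In all genes the calls in KO against EtOH control went from 121 lower and 8 higher to 257 and 66 with the block, 191 and 21 without replicate 1, 13 and 0 without replicate 2, and 21 and 0 without replicate 3. With the block and without replicate 1, an alternative added after the data were examined, they were 262 and 60. In the 4OHT control against the EtOH control the calls went from 288 and 295 to 2374 and 2442 with the block and to 4 and 9 without replicate 2, and in KO against 4OHT control from 534 and 391 to 2592 and 2418 and to 68 and 14.

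Values near 0 changed sign without passing the threshold. With library sizes in place of TMM, the log2 fold change in KO against EtOH control was 0.00018 for *Ecsit*, 0.028 for *Tmem126b*, 0.023 for *Ndufaf3* and 0.028 for *Foxred1*, and in KO against 4OHT control it was 0.0199 for *Nubpl*, which also had 0.0056 without a filter and 0.0017 with the replicate block. For *Ecsit* in the 4OHT control against the EtOH control it was -0.0025 without a filter and -0.00089 with only those groups fitted. With libraries left out, changes in KO against EtOH control spanned -0.13 to 0.045 for *Ecsit*, -0.046 to 0.12 for *Acad9*, -0.083 to 0.086 for *Tmem126b*, -0.057 to 0.033 for *Ndufaf3*, -0.068 to 0.14 for *Ndufaf4*, -0.10 to 0.13 for *Ndufaf2*, -0.032 to 0.018 for *Foxred1* and -0.084 to 0.15 for *Nubpl*. In KO against 4OHT control they spanned -0.11 to 0.042 for *Ecsit*, -0.13 to 0.098 for *Acad9*, -0.18 to 0.079 for *Tmem126b*, -0.099 to 0.21 for *Ndufaf4* and -0.084 to 0.13 for *Nubpl*, and in the 4OHT control against the EtOH control -0.087 to 0.053 for *Ndufaf1*, -0.085 to 0.074 for *Ecsit*, -0.0597 to 0.16 for *Acad9*, -0.039 to 0.14 for *Tmem126b*, -0.17 to 0.14 for *Ndufaf4* and -0.13 to 0.16 for *Nubpl*. Without replicate 1 and with the block they were 0.023 for *Ndufaf3* in KO against EtOH control, -0.019 for *Ndufaf4* and 0.058 for *Nubpl* in KO against 4OHT control, and -0.032 for *Ecsit* and 0.0295 for *Ndufaf4* in the 4OHT control against the EtOH control.

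The number of assembly factor promoters with a peak was 4 to 5 under all 6 alternative lists and promoter definitions of the Zbtb11 peaks. The coverage at *Foxred1* was 112 in the FLAG-Zbtb11 libraries against 151 in the Zbtb11 libraries, and the other coverage values moved by less than 1 SD. Differences in log2 ratio between *Ndufaf1* and the other 8 were -2.42 to -1.75 without 1 replicate number. At 130 to 1510 counts per library, and with 95% intervals that reached -0.66 and 0.68 over the 3 comparisons, small changes of the other 8 were not detectable here.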
